A study of Arabidopsis thaliana with 11 samples.

Results

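The 89 genes described here had their highest values in cells sorted with a MUTE promoter reporter, out of 33602 genes measured along the stomatal lineage of Arabidopsis thaliana. A gene was chosen when the lower of the 2 MUTE-stage libraries was at least 1 log2 unit above the highest of the 9 other libraries and the mean of those 2 libraries was at least 6 on the log2 scale. The values of these 11 libraries therefore chose the genes, and the excess in the MUTE-stage libraries is described below without a test. The margin, as used below, is the lower MUTE-stage library minus the highest of the 9 others. MUTE, EPF1 and CYP86A8 met the same thresholds, which 92 genes passed in all, and were set aside with EPF2, TMM and SDD1, which fell short. The choice needs both MUTE-stage libraries: without replicate 1 of that group 903 genes passed, and without replicate 2 it was 541.

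RNA was sequenced from protoplasts that were sorted by fluorescence out of the aerial tissue of 10-day-old seedlings, which grew in 16-h days at 25 °C and whose tissue was digested for 2 h. Every line was in the Col background and carried 1 reporter. By the labels, ML1Y (ML1p::YFP-RCI2A) stands for the whole epidermis, SSY (SPCHp::SPCH-YFP) for mother cells of meristemoids and young meristemoids, and MG (MUTEp::nucGFP) for late meristemoids with young guard mother cells. FGF (FAMAp::GFP-FAMA) stands for older guard mother cells with young guard cells, and E1728G (the enhancer trap E1728::GFP) for mature guard cells. There were 3 SSY libraries and 2 of each other group. MG carries GFP alone under the MUTE promoter, so the sort followed the activity of that promoter, while SSY and FGF carry an added fusion of the stage's own regulator. The labels do not say whether replicates came from separate plants, so p-values measure the spread between these libraries, which may be technical. All levels are the authors' normalized log2 values, which are not scaled to gene length, and read depth is unknown.

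In the stomatal lineage a protodermal cell divides unequally to give a meristemoid, which may divide again before it rounds up into a guard mother cell. The guard mother cell then divides once, equally, into a pair of guard cells. MUTE, a bHLH transcription factor, ends the unequal divisions and drives the entry into the guard mother cell state, where it is known to switch on cell cycle genes for the last division. The outer face of these cells is meanwhile covered by a cuticle of cutin and wax that is made by epidermal cells.

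The reporter's own gene was read first. MUTE (AT3G06120) stood at 4.88 and 4.21 in ML1Y, 4.56, 4.8 and 5.24 in SSY, 7.65 and 9.86 in MG, 3.77 and 4.6 in FGF, and 4.46 and 4.24 in E1728G. EPF1 (AT2G20875), the secreted peptide that guards stomatal spacing, stood at 3.3 and 3.08 in ML1Y, 4.22, 4.66 and 4.23 in SSY, 8.05 and 7.68 in MG, 4.07 and 5.08 in FGF, and 3.24 and 5.12 in E1728G. CYP86A8 (AT2G45970), a fatty acid hydroxylase of cutin synthesis, stood at 6.52 and 5.65 in ML1Y, 5.59, 5.23 and 5.38 in SSY, 9.13 and 10.96 in MG, 6.28 and 5.23 in FGF, and 5.7 and 5.57 in E1728G. Both MG libraries were above every other library for these 3 genes. For TMM (AT1G80080), the receptor-like protein of the patterning pathway, MG stood at 10.86 and 14.12 and the highest other library was SSY replicate 3 at 10.32. SDD1 (AT1G04110), a subtilisin-like protease, had 9.69 and 13.77 in MG and 8.85 in FGF replicate 2. The peptide gene EPF2 (AT1G34245) cleared the margin at 1.07, and its MG mean of 5.23 was under the minimum. In these 3 genes MG replicate 2 was higher than replicate 1.

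The genes of the other 2 stage reporters were read in the same way. FAMA (AT3G24140), a bHLH factor that acts in the guard mother cell, stood at 8.88 and 8.3 in ML1Y, 12.39, 10.66 and 11.6 in SSY, 10.6 and 9.82 in MG, 14.03 and 14.9 in FGF, and 11.5 and 10.98 in E1728G. Both FGF libraries were the highest, though reads of the added GFP-FAMA fusion could have been counted as FAMA there. The same holds for SPCH in SSY, which carries an added SPCH-YFP fusion. SPCH (AT5G53210), the bHLH factor that starts the lineage, stood at 6.36 and 5.92 in ML1Y, 5.46, 6.12 and 5.15 in SSY, 7.12 and 5.55 in MG, 6.68 and 8.26 in FGF, and 5.81 and 6.36 in E1728G. Its mean was lowest in the libraries labelled SSY, at 5.58 against 6.09 to 7.47 in the other groups, which goes against that label. The SSY minus ML1Y difference of SPCH was -0.56 ± 0.57, adjusted p = 0.609 by limma, short of the threshold. FAMA and the guard cell gene TGG1 (AT5G26000) had means of 11.55 and 19.66 in SSY, above 8.59 and 16.85 in ML1Y. Other stage regulators were mixed. Of the 23 stage regulators tested, 17 had a higher mean in SSY than in ML1Y, with a median difference of 0.81. Among them limma called 2 higher and 1 lower in SSY, against 0.684% and 4.82% of all genes. POLAR (AT4G31805) stood at 7.85, 6.91 and 10.01 in SSY and at 5.53 and 5.63 in ML1Y. Means in SSY and ML1Y were 9.57 and 8.32 for TMM, 8.35 and 6.92 for SDD1, and 4.22 and 4.8 for BASL (AT5G60880). SSY is therefore used below as the name of these 3 libraries, and no comparison with it is read as a comparison with an early stage.

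**Figure D1:**
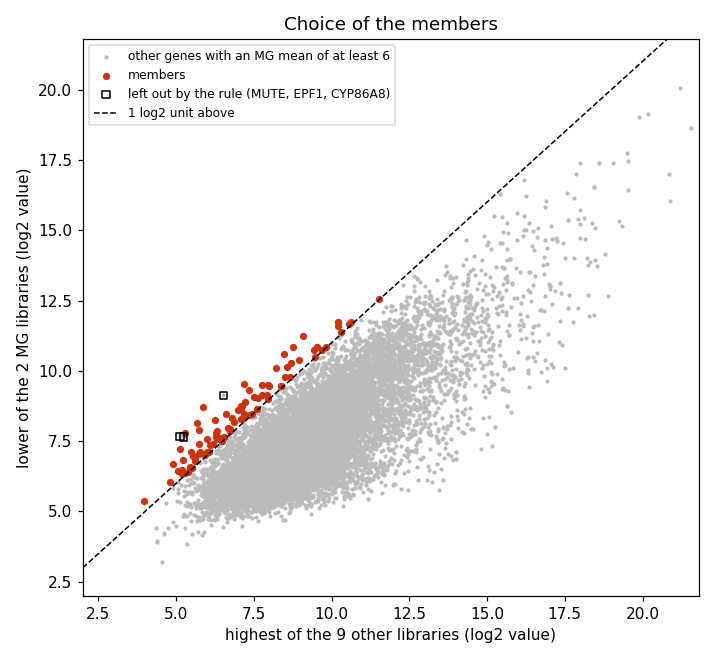
Each point is a gene with an MG mean of at least 6. The x axis is the highest of the 9 other libraries and the y axis the lower of the 2 MG libraries, both as log2 values, and the dashed line lies 1 log2 unit above equality. The 89 members lie on or above the line by construction, with margins from 1.01 to 2.88, and most of the other genes lie below it.

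The margins ran from 1.01 to 2.88 log2 units, with a median of 1.32. A margin of at least 1.5 was reached by 32 members and one of at least 2 by 10. MG means lay between 6.34 and 12.74, with a median of 8.73. Of the members, 29 had an MG mean from 6 to under 8, 39 from 8 to under 10, and 21 of 10 or more. Set against each group's mean, the median excess of MG over the members was 2.34 log2 units over ML1Y, 2.96 over SSY, 2.40 over FGF and 2.86 over E1728G. Over all genes the same medians were 0.03, -0.07, 0.01 and 0.00. In bulk sorts a larger share of cells that express a gene and more RNA per cell cannot be told apart. With another group in the place of MG, the same thresholds gave 590 genes for ML1Y, 56 for SSY, 23 for FGF and 29 for E1728G. The counts are not fully alike, because all 3 SSY libraries had to clear the margin and only 2 in each other group.

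Just inside the threshold lay AT5G48960, a predicted nucleotidase, with a margin of 1.012, the microtubule-binding gene WDL1 (AT3G04630) with 1.013, GPAT4 (AT1G01610) with 1.032, DME (AT5G04560) with 1.033 and the leucine-rich repeat gene AT4G16162 with 1.041. Just outside it lay AT1G13160 with 0.994, the SCAR family gene WAVE2 with 0.993, the histidine synthesis gene ATP-PRT2 with 0.993, AT5G47430 with 0.991 and AT3G58520 with 0.986. Members and non-members near the threshold thus differed by a few hundredths of a log2 unit.

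**Figure D2:**
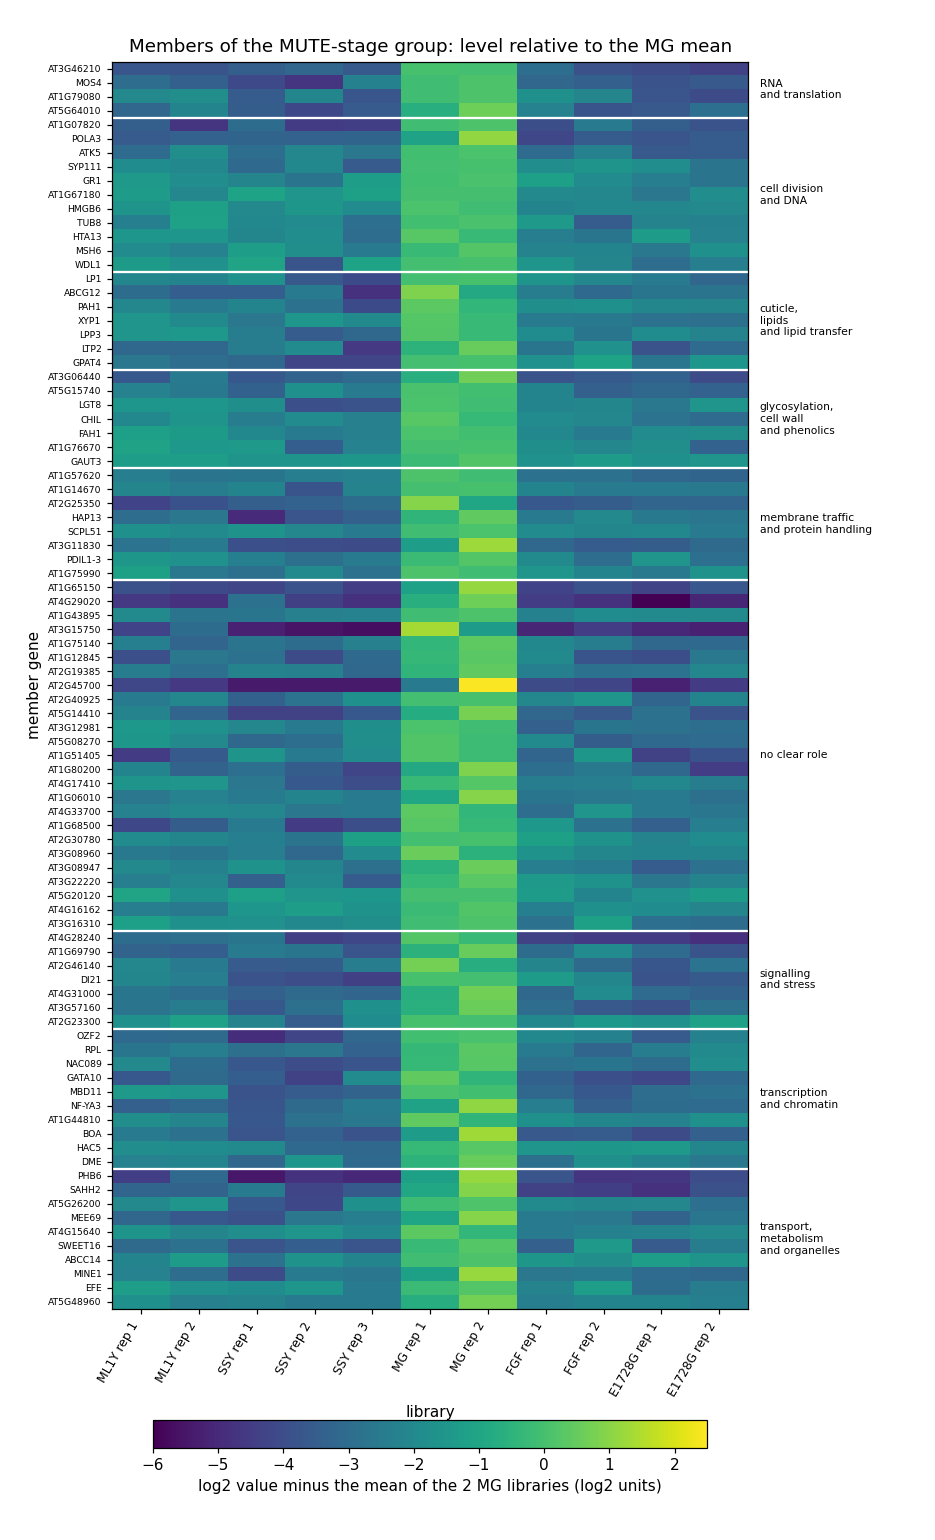
Rows are the 89 members, grouped by role and ordered by margin within a role, and columns are the 11 libraries. Colour is the log2 value minus the mean of the 2 MG libraries. The MG columns are brightest by construction, and differences between MG replicates 1 and 2 are visible in rows such as AT2G45700 (4.89 log2 units) and AT3G15750 (-2.68, replicate 2 minus 1).

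Sorted by the roles of their products after the members were seen, 11 members belong to cell division and DNA, 10 to transcription and chromatin, and 10 to transport, metabolism and organelles. Another 8 belong to membrane traffic and protein handling, 4 to RNA and translation, and 7 each to cuticle and lipids, to glycosylation, cell wall and phenolics, and to signalling and stress. The remaining 25 have no role that could be assigned with certainty. By RefSeq annotation 87 of the members are protein coding and 2 are transcribed pseudogenes, and 41 have a symbol.

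The division and DNA members span DNA synthesis, chromatin, the spindle and the new cell wall. POLA3 (AT5G41880), a DNA primase gene whose product starts new DNA strands, stood at 5.44 and 5.68 in ML1Y, 5.73, 5.66 and 5.75 in SSY, 7.89 and 10.11 in MG, 4.8 and 5.47 in FGF, and 5.25 and 5.47 in E1728G. Its 9 other libraries stayed between 4.8 and 5.75, and MG replicate 2 was over 2 log2 units above replicate 1. AT1G07820, a histone gene, stood at 6.23 and 4.94 in ML1Y, 6.65, 5.16 and 5.22 in SSY, 9.54 and 9.77 in MG, 5.69 and 7.18 in FGF, and 6.21 and 5.83 in E1728G. Both MG libraries were close to each other and FGF replicate 2 came nearest to them, giving a margin of 2.36, which is 5.13-fold on the linear scale. The H2A histone gene HTA13 (AT3G20670) stood at 7.23 and 7.22 in ML1Y, 6.65, 6.93 and 5.81 in SSY, 9.04 and 8.48 in MG, 6.41 and 6.07 in FGF, and 7.43 and 6.52 in E1728G, with E1728G replicate 1 as the nearest library. Reads of histone genes, and of the tubulin gene below, can be shared with near-identical copies, so these values are uncertain as values of 1 gene.

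Members with products of microtubules or the cell plate followed. No value here ties TUB8 or WDL1, placed in this role as microtubule genes, to mitosis. ATK5 (AT4G05190), a minus-end-directed kinesin of the spindle, stood at 6.55 and 7.77 in ML1Y, 6.66, 7.52 and 6.96 in SSY, 9.51 and 9.66 in MG, 6.55 and 7.31 in FGF, and 5.95 and 6.05 in E1728G. SYP111 (AT1G08560), the cytokinesis syntaxin also known as KNOLLE, which fuses vesicles into the cell plate, stood at 6.82 and 6.64 in ML1Y, 5.58, 6.65 and 5.11 in SSY, 8.64 and 8.7 in MG, 6.84 and 7.08 in FGF, and 6.84 and 5.94 in E1728G. In both genes the 2 MG libraries lay within 0.15 of each other and over 1.5 above the nearest other library. TUB8 (AT5G23860), a beta-tubulin, stood at 8.42 and 8.54 in MG, above 7.35 in ML1Y replicate 2. WDL1, whose product binds microtubules, stood at 12.55 and 12.62 in MG, and SSY replicates 1 and 3 came close at 11.54 and 11.51 while SSY replicate 2 was at 8.81.

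DNA repair was represented by MSH6 (AT4G02070), a mismatch recognition protein, and by GR1 (AT3G52115), which takes part in the repair of double-strand breaks. MSH6 stood at 7.33 and 6.99 in ML1Y, 7.94, 7.43 and 6.76 in SSY, 8.99 and 9.45 in MG, 7.03 and 7.06 in FGF, and 6.63 and 7.48 in E1728G. GR1 stood at 5.23 and 4.8 in ML1Y, 4.52, 3.9 and 5.4 in SSY, 6.58 and 6.7 in MG, 5.44 and 4.73 in FGF, and 4.29 and 3.92 in E1728G. SSY replicate 1 was the nearest library for MSH6 and FGF replicate 1 for GR1. AT1G67180, a protein with RING and BRCT domains, stood at 7.01 and 7.01 in MG with a margin of 1.07. HMGB6 (AT5G23420), a high-mobility-group chromatin protein, stood at 6.54 and 6.35 in MG with the same margin of 1.07. Over the 11 members of this role the median margin was 1.07, and MG replicate 2 was the higher library in 8.

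Promoter windows of 3 of these genes are printed because each holds a sequence known from cell cycle genes: the E2F site (TTTCCCGC or TTTGGCGC) of genes for DNA synthesis, the core AACGG of the MSA element of genes for mitosis, and the octamer CGCGGATC of histone genes. The windows run from 250 bases before the annotated start to 50 from it on, 5′ to 3′ along the gene, in the RefSeq assembly TAIR10.1. The deposited values rest on TAIR10 and carry no coordinates. The capitals mark, on either strand, the matches of 1 motif in each window: the E2F site in POLA3, the MSA core in SYP111 and the octamer in HTA13. The POLA3 and HTA13 windows also hold an MSA core, left in lower case. POLA3 lies at chr5:16760596-16760895 on the plus strand, SYP111 at chr1:2710951-2711250 on the minus strand and HTA13 at chr3:7229140-7229439 on the plus strand.
POLA3: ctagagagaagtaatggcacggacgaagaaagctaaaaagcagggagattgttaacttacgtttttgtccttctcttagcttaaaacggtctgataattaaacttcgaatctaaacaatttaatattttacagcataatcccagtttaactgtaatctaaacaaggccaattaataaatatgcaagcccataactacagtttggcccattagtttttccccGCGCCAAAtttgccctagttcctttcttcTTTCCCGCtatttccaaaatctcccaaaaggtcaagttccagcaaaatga
SYP111: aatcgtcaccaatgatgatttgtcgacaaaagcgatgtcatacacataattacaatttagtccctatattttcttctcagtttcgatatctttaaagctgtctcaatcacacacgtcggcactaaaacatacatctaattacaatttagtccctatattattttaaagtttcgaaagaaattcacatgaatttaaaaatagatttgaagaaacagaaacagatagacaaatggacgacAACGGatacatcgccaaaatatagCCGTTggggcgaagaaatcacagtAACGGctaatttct
HTA13: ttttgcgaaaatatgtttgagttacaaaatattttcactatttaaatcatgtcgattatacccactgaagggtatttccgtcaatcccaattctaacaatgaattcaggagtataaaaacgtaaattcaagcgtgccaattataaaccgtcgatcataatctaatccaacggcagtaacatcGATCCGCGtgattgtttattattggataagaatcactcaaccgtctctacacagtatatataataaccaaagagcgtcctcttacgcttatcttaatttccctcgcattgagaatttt
The POLA3 window held 2 E2F matches, 1 of them just before the annotated start and 1 at it. The SYP111 window held 3 MSA cores around its start, and the HTA13 window held 1 histone octamer. Among the members, an E2F match was found in 3 of 89 windows (3.4%), in POLA3, AT1G65150 and AT4G33700, against 1.9% of the 32834 windows of all genes. An MSA core was found in 25 (28.1%) against 24.8%. The octamer, added after the members were seen, was found in HTA13 alone (1.1%) against 0.2%. These matches are a description of letters and were not tested.

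The cuticle and lipid members include genes that export wax, build cutin and carry lipids. ABCG12 (AT1G51500), a wax exporter also known as CER5, stood at 9.61 and 9.15 in ML1Y, 9.17, 10.08 and 7.83 in SSY, 13.49 and 11.75 in MG, 10.21 and 9.54 in FGF, and 9.92 and 9.89 in E1728G. Its MG libraries differed by -1.74 (replicate 2 minus 1), and even the lower was 1.54 above FGF replicate 1. GPAT4, an acyltransferase of cutin synthesis, stood at 7.9 and 7.55 in ML1Y, 7.4, 6.28 and 6.29 in SSY, 10.49 and 10.55 in MG, 8.82 and 9.46 in FGF, and 7.86 and 8.97 in E1728G. FGF replicate 2 came nearest, followed by E1728G replicate 2, and the means of ML1Y and SSY were the lowest. LP1 (AT2G38540), the lipid transfer protein LTP1, stood at 7.0 and 6.94 in ML1Y, 7.45, 5.48 and 5.02 in SSY, 9.08 and 9.15 in MG, 7.51 and 7.03 in FGF, and 6.59 and 5.92 in E1728G. LTP2 (AT2G38530), its neighbour on the chromosome, stood at 5.65 and 5.67 in ML1Y, 6.39, 6.89 and 4.2 in SSY, 8.27 and 9.31 in MG, 6.1 and 7.1 in FGF, and 4.97 and 5.76 in E1728G. For both lipid transfer genes the nearest library was one of FGF, SSY libraries ranged by over 2 log2 units, and reads could have been shared between these similar genes.

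PAH1 (AT3G09560), a phosphatidic acid phosphatase of membrane lipid turnover, stood at 9.88 and 9.46 in ML1Y, 9.78, 9.1 and 7.86 in SSY, 12.3 and 11.58 in MG, 10.18 and 10.2 in FGF, and 9.85 and 9.82 in E1728G. LPP3 (AT3G02600), a lipid phosphate phosphatase, stood at 7.82 and 7.93 in ML1Y, 6.97, 5.86 and 6.25 in SSY, 9.64 and 9.15 in MG, 7.53 and 6.7 in FGF, and 7.53 and 7.19 in E1728G. XYP1 (AT5G64080), a lipid-transfer-like protein, stood at 5.17 and 4.78 in ML1Y, 4.11, 5.18 and 4.78 in SSY, 6.99 and 6.46 in MG, 4.24 and 4.16 in FGF, and 3.94 and 3.88 in E1728G. In these 3 genes MG replicate 1 was the higher of the MG libraries and no other library reached within 1.2 of the lower one. The window of ABCG12 is printed because it holds an L1 box (TAAATGCA or TAAATGTA), an element known from genes of the epidermis, marked in capitals on the reverse strand. It lies at chr1:19101216-19101515 on the minus strand of TAIR10.1.
ABCG12: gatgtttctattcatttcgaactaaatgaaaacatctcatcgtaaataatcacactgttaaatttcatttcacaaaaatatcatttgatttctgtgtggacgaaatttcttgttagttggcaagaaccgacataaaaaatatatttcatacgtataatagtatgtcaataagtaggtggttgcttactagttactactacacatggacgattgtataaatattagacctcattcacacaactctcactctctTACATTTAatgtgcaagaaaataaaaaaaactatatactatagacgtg
An L1 box was found in 6 of the 89 member windows (6.7%) against 5.0% of all windows. Of the 6, ABCG12 and XYP1 are lipid genes.

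**Figure D3:**
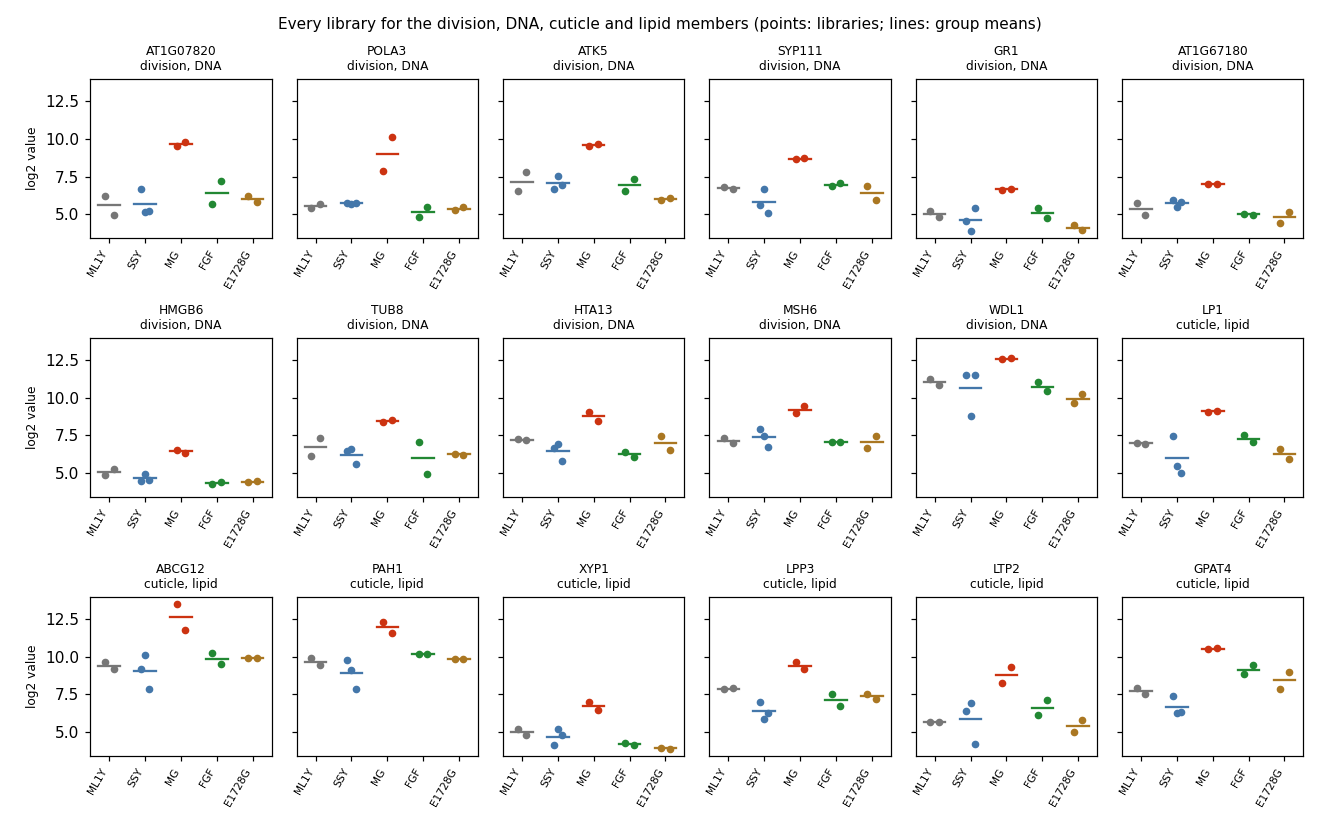
Panels show the 11 division and DNA members and the 7 cuticle and lipid members. Each point is 1 library, the line is the group mean, and the y axis is the log2 value. The MG points lie above all others in each panel by construction, while the distance between the MG points ranges from about none in AT1G67180 (7.01 and 7.01) to over 2 log2 units in POLA3 (7.89 and 10.11).

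Among the transcription and chromatin members, OZF2 (AT4G29190), a CCCH zinc finger protein, had the largest margin at 1.97 and stood at 6.29 and 6.32 in ML1Y, 4.48, 5.17 and 6.17 in SSY, 9.31 and 9.45 in MG, 7.34 and 7.12 in FGF, and 5.82 and 7.11 in E1728G. RPL (AT5G02030), the BELL homeodomain protein REPLUMLESS, stood at 6.38 and 6.7 in ML1Y, 6.21, 6.44 and 5.73 in SSY, 8.74 and 9.4 in MG, 6.53 and 5.85 in FGF, and 6.66 and 7.11 in E1728G. NAC089 (AT5G22290), a NAC factor that is anchored to membranes, stood at 6.62 and 5.63 in ML1Y, 4.92, 4.62 and 4.86 in SSY, 8.32 and 8.92 in MG, 5.84 and 5.94 in FGF, and 5.61 and 6.8 in E1728G. In OZF2 both FGF libraries came nearest to MG, and in RPL and NAC089 it was E1728G replicate 2. GATA10 (AT1G08000), a zinc finger factor, stood at 10.34 and 9.47 in MG and at 8.0 in SSY replicate 3, its nearest library. NF-YA3 (AT1G72830), a CCAAT-binding subunit, stood at 7.96 and 10.13 in MG, and BOA (AT5G59570), a factor of the circadian clock, at 7.4 and 10.01. In the last pair MG replicate 2 was over 2 log2 units above replicate 1.

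The same role holds chromatin enzymes. HAC5 (AT3G12980), a histone acetyltransferase, stood at 10.13 and 10.1 in ML1Y, 10.01, 8.86 and 8.8 in SSY, 11.66 and 12.23 in MG, 10.38 and 10.45 in FGF, and 10.56 and 9.86 in E1728G. DME (AT5G04560), a DNA glycosylase that removes methylated cytosine, stood at 9.13 and 9.19 in ML1Y, 8.18, 9.82 and 8.28 in SSY, 10.85 and 11.89 in MG, 8.5 and 9.62 in FGF, and 9.21 and 8.78 in E1728G. For both, all 9 other libraries were already above 8, and SSY replicate 2 was the nearest to MG for DME and E1728G replicate 1 for HAC5. MBD11 (AT3G15790), of the methyl-CpG-binding domain family, is taken up below with the comparisons among the other groups. AT1G44810, of the storekeeper family of regulators, stood at 8.25 and 7.37 in MG with a margin of 1.28.

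The largest margin of all 89 belonged to AT3G46210, annotated with a ribosomal protein S5 fold, which stood at 5.03 and 4.98 in ML1Y, 5.34, 5.56 and 5.18 in SSY, 8.81 and 8.73 in MG, 5.85 and 4.88 in FGF, and 4.73 and 4.44 in E1728G. Its MG libraries differed by -0.08 (replicate 2 minus 1) and the lower was 7.35-fold above FGF replicate 1 on the linear scale. MOS4 (AT3G18165), a component of a nuclear complex of splicing and immunity, stood at 8.38 and 7.96 in ML1Y, 7.22, 6.66 and 9.09 in SSY, 11.23 and 11.47 in MG, 8.14 and 7.95 in FGF, and 7.53 and 7.71 in E1728G. SSY replicate 3 was its nearest library, 2.14 below. AT4G28240, a wound-responsive family gene with a margin of 2.47, stood at 5.4 and 5.52 in ML1Y, 5.67, 4.0 and 4.19 in SSY, 8.62 and 8.14 in MG, 4.01 and 3.87 in FGF, and 3.89 and 3.57 in E1728G. AT1G65150, a TRAF-like gene with a margin of 2.52, stood at 5.07 and 4.81 in ML1Y, 4.73, 5.11 and 4.48 in SSY, 7.8 and 10.1 in MG, 4.67 and 5.09 in FGF, and 4.7 and 5.27 in E1728G. The glycine-rich protein gene AT4G29020, with a margin of 2.15, stood at 6.65 and 6.45 in ML1Y, 8.46, 6.85 and 6.45 in SSY, 10.6 and 11.88 in MG, 6.78 and 6.46 in FGF, and 5.1 and 6.15 in E1728G. MG replicate 2 was clearly the higher MG library in AT1G65150 and AT4G29020, whereas in AT4G28240 replicate 1 was higher.

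Membrane traffic was represented by HAP13 (AT1G60780), a medium subunit of a clathrin adaptor complex, which stood at 7.61 and 7.94 in ML1Y, 5.57, 6.8 and 7.17 in SSY, 10.14 and 11 in MG, 8.04 and 8.56 in FGF, and 8.0 and 7.9 in E1728G. FGF replicate 2 was the nearest library, and SSY replicate 1 the lowest. A p24 family gene, AT1G57620, had 7.46 and 7.21 in MG and a margin of 2.1, and the endomembrane protein gene AT1G14670 had 10.86 and 10.9 with 2.09. The PX-domain gene AT2G25350 had 10.19 and 8.27 with 2.02. PDIL1-3 (AT3G54960), of the protein disulfide isomerase family, had a margin of 1.29, and SCPL51 (AT2G27920), a carboxypeptidase-like protein, one of 1.57. In PDIL1-3 and SCPL51 the MG libraries differed by under 0.5.

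In metabolism and organelles, PHB6 (AT2G20530), a prohibitin, a class of proteins of the inner mitochondrial membrane, stood at 6.87 and 8.2 in ML1Y, 5.82, 6.51 and 6.24 in SSY, 10.1 and 12.45 in MG, 7.52 and 6.56 in FGF, and 6.64 and 7.29 in E1728G. SAHH2 (AT3G23810), which hydrolyses the by-product of methylation reactions, stood at 7.17 and 7.1 in ML1Y, 7.95, 6.18 and 6.81 in SSY, 9.49 and 11.34 in MG, 6.1 and 5.99 in FGF, and 5.62 and 6.53 in E1728G. MEE69 (AT4G37140), annotated as a hydrolase, stood at 3.14 and 2.67 in ML1Y, 2.44, 3.7 and 3.97 in SSY, 5.37 and 7.31 in MG, 3.87 and 3.73 in FGF, and 3.06 and 3.69 in E1728G. All 3 were higher in MG replicate 2 than in replicate 1 by 1.85 or more. SWEET16 (AT3G16690), a sugar transporter of the vacuole, had 8.27 and 8.8 in MG and 7.12 in FGF replicate 2. EFE (AT1G05010), which makes ethylene, had 10.73 and 11.15 in MG, and MINE1 (AT1G69390), of plastid division, had 7.11 and 9.47. The ABC transporter gene ABCC14 (AT3G62700) had 9.78 and 10.0, and its margin was 1.12. Of the 10 members in this role, 9 were higher in MG replicate 2.

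Members for cell wall and phenolic products included LGT8 (AT1G70090), a glycosyltransferase, at 8.94 and 8.96 in ML1Y, 8.72, 6.55 and 6.66 in SSY, 10.59 and 10.39 in MG, 8.32 and 8.39 in FGF, and 7.9 and 8.93 in E1728G. CHIL (AT5G05270), a chalcone isomerase-like protein of flavonoid synthesis, stood at 5.29 and 5.73 in ML1Y, 4.94, 5.44 and 5.03 in SSY, 7.62 and 7.04 in MG, 5.43 and 5.27 in FGF, and 4.57 and 4.3 in E1728G. FAH1 (AT4G36220), a hydroxylase of lignin and sinapate synthesis, stood at 6.54 and 6.35 in ML1Y, 5.7, 5.19 and 5.44 in SSY, 7.82 and 7.65 in MG, 5.69 and 5.22 in FGF, and 5.83 and 5.92 in E1728G. The nearest library was ML1Y replicate 2 for LGT8 and CHIL and ML1Y replicate 1 for FAH1. GAUT3 (AT4G38270), of the galacturonosyltransferase family, had 8.65 and 9.03 in MG, and its 9 other libraries covered 0.48 log2 units, the narrowest spread among the members. Over the members that spread ran from 0.48 to 3.36, with a median of 1.80.

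The 2 MG libraries did not contribute equally. MG replicate 2 was the higher in 59 of 89 members, against 52.6% of all genes, a share that includes genes with an MG mean under 6. Over the members the median difference (replicate 2 minus 1) was 0.22 log2 units. The difference ran from -2.68 in AT3G15750, a Yae1-domain gene, to 4.89 in the SAM-domain gene AT2G45700, which stood at 10.29 and 15.18. It exceeded 1 log2 unit in 28 members (31.5%) and 2 in 9, and was 0.5 or less in 42. Among the 12232 genes with an MG mean of at least 6 it exceeded 1 in 43.4%, and the median size was 0.87, against 0.54 in the members. Because the rule takes the lower MG library, a gene with 1 low MG library cannot enter, so the smaller difference in the members is partly set by the choice. Across genes the rank correlation of the MG libraries was 0.921. MG replicate 1 was closer to FGF replicate 1, at 0.932, and the part of this in the members' values was not tested.

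**Figure D4:**
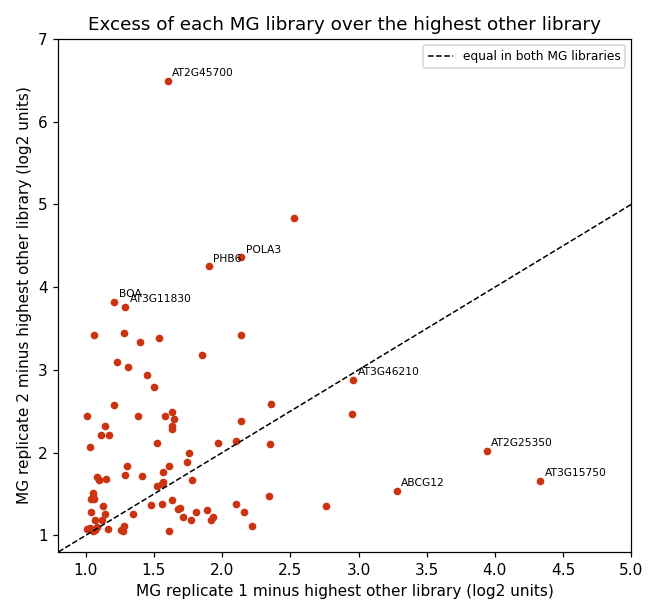
Each point is a member. The x axis is MG replicate 1 and the y axis MG replicate 2, each minus the highest of the 9 other libraries in log2 units, and the dashed line marks equal values. More points lie above the line (59 of 89) than below it, and AT2G45700 and AT3G15750 lie farthest from it.

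What the rule did not fix is how the members were ordered among the 4 other groups. The highest of the other group means was ML1Y in 42 members (47.2%), FGF in 28 (31.5%), SSY in 10 (11.2%) and E1728G in 9 (10.1%). Among all genes with an MG mean of at least 6 these shares were 29.4%, 28.6%, 18.1% and 23.8%. The lowest of the other means was SSY in 38 members, E1728G in 32, FGF in 11 and ML1Y in 8. These differences were tested with limma over the 9 libraries outside MG, across 29671 genes, with p-values adjusted over all of them. The rule held every one of these 9 values under a ceiling, so large rises above the other groups were cut off by the choice, and counts and medians are given as a description.

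For the libraries labelled SSY against ML1Y, limma called 0 of 89 members higher in SSY, where 0.684% of all genes were, and 3 lower, where 4.82% of all genes were. At an unadjusted p under 0.05 there were 2 higher and 14 lower, while 5981 of all 29671 genes passed in either direction. MBD11 stood at 7.76 and 7.63 in ML1Y, 5.36, 5.67 and 5.9 in SSY, 9.24 and 9.13 in MG, 6.03 and 5.54 in FGF, and 6.23 and 6.39 in E1728G. Both ML1Y libraries were above every library of SSY, FGF and E1728G, and the SSY minus ML1Y difference was -2.05 ± 0.45 (standard error), adjusted p = 0.0219 by limma. DI21 (AT4G15910), a drought-induced gene, stood at 5.51 and 5.24 in ML1Y, 3.8, 3.63 and 3.23 in SSY, 7.65 and 7.56 in MG, 6.3 and 5.52 in FGF, and 3.78 and 4.01 in E1728G. Its SSY libraries were all below both ML1Y libraries, with a difference of -1.82 ± 0.4 (standard error), adjusted p = 0.0224 by limma. AT3G15750 stood at 5.94 and 7.23 in ML1Y, 5.01, 4.68 and 4.54 in SSY, 11.56 and 8.89 in MG, 5.12 and 5.75 in FGF, and 5.19 and 5.01 in E1728G. Its SSY libraries were again below both ML1Y libraries, with a difference of -1.84 ± 0.47 (standard error), adjusted p = 0.0413 by limma.

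These calls rested on few libraries, as fits that left out 1 library at a time show. The limma call of MBD11 was lost without ML1Y replicate 1 or 2 (adjusted p from 0.17 to 0.173). That of DI21 was lost without ML1Y replicate 1 or 2 or SSY replicate 3 (adjusted p from 0.0545 to 0.197). AT3G15750 was lost without ML1Y replicate 1 or 2, SSY replicate 2 or 3, FGF replicate 1 or 2, or E1728G replicate 1 or 2 (adjusted p from 0.0564 to 0.429), so it held in 3 of 17 alternatives. MBD11, DI21 and AT3G15750 missed the threshold with only the 2 groups in the fit (adjusted p from 0.0522 to 0.0894). Calls were also lost with no filter for AT3G15750, quantile normalization for AT3G15750, no mean trend for AT3G15750 and all 11 libraries in the fit for AT3G15750 (adjusted p from 0.0596 to 0.151). The total over all genes fell from 1634 to 377 without ML1Y replicate 1 and to 223 without replicate 2, where 0 members were called. Over the members the median SSY minus ML1Y difference was -0.41, against 0.06 over all genes tested, and 68 of 89 were negative. Quantile normalization moved it to -0.25, and without SSY replicate 1 there were 5 members called. The 8 photosynthesis genes of the mesophyll list were all lower in SSY than in ML1Y, with summed levels of 13.28 to 14.72 in SSY and 18.49 to 18.83 in ML1Y, and their part in these differences was not tested.

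DI21 was also the single member called between FGF and the libraries labelled SSY. It was higher in FGF by 2.36 ± 0.4 (standard error), adjusted p = 0.0217 by limma, and both FGF libraries were above all 3 SSY libraries. That call held in 8 of 16 alternatives and was lost without ML1Y replicate 1 or 2, SSY replicate 2 or 3, or FGF replicate 1 or 2 (adjusted p from 0.0526 to 0.134). DI21 missed the threshold with only the 2 groups in the fit (adjusted p = 0.081). Of all genes, 1.52% were higher and 0.239% lower in FGF, so 1 of 89 members higher and 0 lower is near the background (10 and 1 at an unadjusted p under 0.05 by limma). Unadjusted, 5000 of all 29671 genes passed in either direction. The members' median difference was 0.37, against -0.08 over all genes, and 62 of 89 were positive. Quantile normalization gave a median of 0.17, and without SSY replicate 1 there were 2 members called. GPAT4 had the largest difference at 2.48 ± 0.64 (standard error), adjusted p = 0.0726, which missed the threshold.

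limma called 0 members in the other 3 comparisons, though with only the 2 groups in the fit it called 2 for FGF against ML1Y and 2 for E1728G against ML1Y. For FGF against ML1Y, 0.175% of all genes were higher and 1.84% lower in FGF, and at an unadjusted p under 0.05 there were 2 members higher and 4 lower. The unadjusted count over all genes, in either direction, was 3701 of 29671. The member nearest to a call was MBD11, at -1.91 ± 0.49 (standard error), adjusted p = 0.0784. The median difference was -0.16, against 0.04 over all genes, and it was -0.05 after quantile normalization and -0.03 without ML1Y replicate 1 or FGF replicate 2. For E1728G against ML1Y, 0.286% of all genes were higher and 2.11% lower, and 0 members were higher and 10 lower at an unadjusted p under 0.05. Over all genes that unadjusted count was 3933 of 29671 in either direction. AT1G79080, a pentatricopeptide repeat gene, had a difference of -2.02 ± 0.59 (standard error), adjusted p = 0.112, and 67 of 89 members were negative with a median of -0.42, against 0.03 over all genes. Without SSY replicate 1 or 2, 1 member was called there. For E1728G against FGF, 0.0101% of all genes were higher and 0% lower, and 0 members were higher and 3 lower at an unadjusted p under 0.05. Over all genes that unadjusted count was 1078 of 29671 in either direction. DI21 was again the nearest to a call, at -2.01 ± 0.44 (standard error), adjusted p = 0.532, and the median was -0.27, against -0.01 over all genes, or -0.18 without FGF replicate 1. The comparisons that share ML1Y or FGF share those libraries, so their values are not independent.

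**Figure D5:**
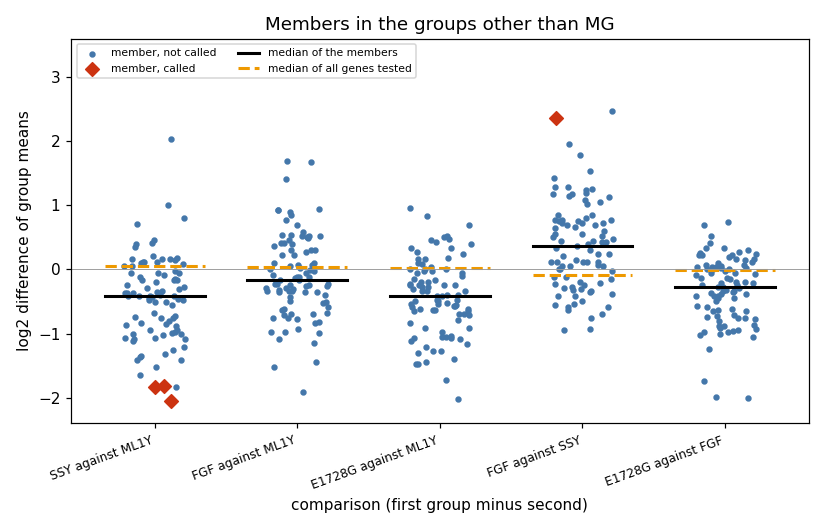
Each point is 1 of the 89 members, placed by its log2 difference between group means (first group minus second) in the comparisons outside MG. Diamonds mark calls at an adjusted p under 0.05 by limma, the black line is the median of the members and the dashed line that of all genes tested. The 3 calls of SSY against ML1Y lie near -2, the single call of FGF against SSY is DI21 at 2.36, and the medians of the members run from -0.42 to 0.37.

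Some members lie side by side in the genome. LTP2 and LP1 are adjacent and on the same strand, and their values over the 11 libraries correlated at 0.79. HAC5 and AT3G12981, 1 of the members without an assigned role, are adjacent on opposite strands without overlap and correlated at 0.59, and no source used here says whether the counting used strand. The ARM repeat genes AT3G08947 and AT3G08960 have 1 gene of the table between them and correlated at 0.66. AT3G15750 and MBD11 have 3 genes between them and correlated at 0.89. All 11 libraries include the 2 MG libraries that chose both genes of a pair, so these correlations are partly fixed by the choice. By chromosome, 26 members lie on chromosome 1, 11 on 2, 22 on 3, 14 on 4 and 16 on 5, and the shares of genes with an MG mean of at least 6 were 26.2%, 14.9%, 19.7%, 14.9% and 23.3%. The members' median gene length was 2295 bases, against 2907 bases for those genes.

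Other promoter elements were counted in the same windows. The E-box CANNTG, the site that bHLH factors bind, was found in 58 of 89 windows (65.2%) against 62.5% of all windows, and the G-box CACGTG, which every E-box count includes, in 9 (10.1%) against 6.9%. The TATA box TATAAA was found in 45 (50.6%) against 50%. Site II (TGGGCC), known from ribosomal protein and cell cycle genes, was found in 20 (22.5%) against 14%, and the telo box (AAACCCTA) in 10 (11.2%) against 6.2%. Both strands were searched, and no share was tested.

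The members were last set beside lists of genes from the same pathways, with differences given ± the standard error of the fit over 11 libraries. MUTE, EPF1 and CYP86A8 met the thresholds of the choice on these same values. Their calls in the comparisons with MG, here and below, are therefore a description and no independent support. Of the 24 stage regulators tested for MG against ML1Y, where limma called 0.188% of all genes higher and 1.43% lower, 3 rose and 0 fell: MUTE (4.21 ± 0.64, adjusted p = 0.00467), EPF1 (4.67 ± 0.58, adjusted p = 0.00168) and SDD1 (4.81 ± 1.05, adjusted p = 0.0315). EPF1 kept its call in 18 of 18 alternatives and MUTE in 16 of 18. MUTE lost it without ML1Y replicate 2 (adjusted p = 0.0859) and SDD1 without ML1Y replicate 1 or 2, MG replicate 2, or E1728G replicate 1 or 2 (adjusted p from 0.0547 to 0.333). The median of the list was 1.70. Of the 14 other DNA replication genes limma called 0 (5 higher at an unadjusted p under 0.05), with a median of 0.35. Unadjusted, 3206 of all 29850 genes passed in either direction. Of the 16 other genes for mitosis and cytokinesis limma called 0 (1 higher unadjusted), with a median of 0.33. Of the 14 other epidermis and cuticle genes limma called only CYP86A8, which met the thresholds of the choice (3.96 ± 0.67, adjusted p = 0.00785). It was lost without ML1Y replicate 2 or MG replicate 2 (adjusted p from 0.0797 to 0.156). All 8 photosynthesis genes fell, among them GOX1 (-7.29 ± 0.76, adjusted p = 0.000988) and CA2 (-6.73 ± 0.78, adjusted p = 0.00138), and these 2 calls held in all 18 alternatives. LHCA4 (-5.47 ± 0.75, adjusted p = 0.00293) was lost without ML1Y replicate 2 (adjusted p = 0.0719) and FBA2 (-5.85 ± 0.83, adjusted p = 0.00386) without ML1Y replicate 2 or MG replicate 2 (adjusted p from 0.0519 to 0.078). The calls of the other 4, RBCS1A, LHCB1.3, LHCB6 and RCA, held in 14 to 16 of 18 alternatives. The xylem protease gene XCP2 fell (-2.23 ± 0.49, adjusted p = 0.0326), a call lost without ML1Y replicate 1 or 2, MG replicate 1 or 2, FGF replicate 1 or 2, or E1728G replicate 1 or 2 (adjusted p from 0.0521 to 0.25), and limma called 0 other markers of vasculature, trichome or meristem (1 trichome gene lower unadjusted). MUTE, SDD1, CYP86A8 and XCP2 missed the threshold with only the 2 groups in the fit (adjusted p from 0.0527 to 0.119). Calls were also lost with no filter for XCP2, quantile normalization for XCP2 and no mean trend for XCP2 (adjusted p from 0.0585 to 0.104).

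For MG against the libraries labelled SSY, where 1.75% of all genes were called higher and 0.375% lower by limma, MUTE (3.89 ± 0.58, adjusted p = 0.00872), EPF1 (3.49 ± 0.53, adjusted p = 0.00925) and EPF2 (2.34 ± 0.57, adjusted p = 0.0479) rose. MUTE was lost without MG replicate 2 (adjusted p = 0.0618) and EPF1 without MG replicate 2 (adjusted p = 0.0562). EPF2 was lost without ML1Y replicate 1 or 2, SSY replicate 1, 2 or 3, FGF replicate 1 or 2, or E1728G replicate 1 or 2 (adjusted p from 0.0524 to 0.108). EPF2 reached the level of the filter in MG only, at 4.32 and 6.14, and its highest other library was SSY replicate 1 at 3.26. Its entry into the test thus rested on the group whose rise was tested, and its call is a description. Without MG replicate 1 or 2, or with the filter at a linear value of 50, EPF2 was not tested. The replication gene MCM2, of the helicase, stood at 6.2 and 6.74 in ML1Y, 6.3, 5.47 and 5.9 in SSY, 8.61 and 7.5 in MG, 5.31 and 5.52 in FGF, and 6.0 and 5.53 in E1728G. The sliding clamp gene PCNA1 stood at 4.16 and 5.08 in ML1Y, 4.4, 4.76 and 4.67 in SSY, 7.48 and 6.9 in MG, 6.8 and 4.27 in FGF, and 4.53 and 4.0 in E1728G. FGF replicate 1 came within 0.11 of the lower MG library for PCNA1. By limma both rose from SSY to MG, MCM2 (2.17 ± 0.53, adjusted p = 0.0476) and PCNA1 (2.58 ± 0.61, adjusted p = 0.0445). Of 14 other replication genes these 2 rose, and the median of the list was 0.02. MCM2 was lost without ML1Y replicate 1 or 2, SSY replicate 2 or 3, MG replicate 1 or 2, FGF replicate 1 or 2, or E1728G replicate 1 or 2 (adjusted p from 0.0648 to 0.244). PCNA1 was lost without ML1Y replicate 1 or 2, SSY replicate 1, 2 or 3, MG replicate 1 or 2, or E1728G replicate 1 or 2 (adjusted p from 0.0634 to 0.218). CYP86A8 rose (4.64 ± 0.61, adjusted p = 0.00511), and limma called 0 of 16 other mitosis genes (2 higher and 1 lower unadjusted), with a median of -0.57. Unadjusted, 5192 of all 29850 genes passed in either direction. MUTE, EPF1, EPF2, MCM2, PCNA1 and CYP86A8 missed the threshold with only the 2 groups in the fit (adjusted p from 0.0751 to 0.237). Calls were also lost with no filter for MCM2 and PCNA1, quantile normalization for MCM2 and PCNA1 and no mean trend for EPF2 and PCNA1 (adjusted p from 0.0534 to 0.108).

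For FGF against MG, where 0.0603% of all genes were called higher and 0.0771% lower by limma, MUTE (-4.57 ± 0.64, adjusted p = 0.024), EPF1 (-3.29 ± 0.58, adjusted p = 0.0391) and CYP86A8 (-4.29 ± 0.67, adjusted p = 0.0253) fell in FGF. MUTE was lost without ML1Y replicate 1 or 2, MG replicate 2, or FGF replicate 1 or 2 (adjusted p from 0.0562 to 0.111). EPF1 was lost without ML1Y replicate 1 or 2, SSY replicate 1, 2 or 3, MG replicate 1 or 2, or FGF replicate 1 or 2 (adjusted p from 0.0629 to 0.201), and CYP86A8 without ML1Y replicate 1 or 2, MG replicate 2, or FGF replicate 1 or 2 (adjusted p from 0.0568 to 0.201). The medians were -1.03 over the 14 other replication genes and -0.51 over the 16 other mitosis genes, with 0 called by limma in either list (5 and 2 lower unadjusted). Unadjusted, 2493 of all 29850 genes passed in either direction. The mature guard cell genes TGG1 and GC1 (AT1G22690) were higher in FGF than in MG, by 3.23 ± 0.53, adjusted p = 0.0297 for TGG1 and 4.28 ± 0.72, adjusted p = 0.031 for GC1. They were lower in MG than in SSY, at -2.54 ± 0.49, adjusted p = 0.0197 for TGG1 and -3.12 ± 0.66, adjusted p = 0.0274 for GC1. TGG1 and GC1 were the only 2 called of the 9 genes in this list in either comparison. The list medians were 2.60 for FGF against MG and -0.87 for MG against SSY. In the latter, 2 genes, KAT1 and SLAC1, were higher in MG. Against FGF, TGG1 was lost without ML1Y replicate 1 or 2, MG replicate 1 or 2, FGF replicate 1 or 2, or E1728G replicate 1 or 2 (adjusted p from 0.0568 to 0.254) and GC1 without ML1Y replicate 1 or 2, SSY replicate 3, MG replicate 1 or 2, or FGF replicate 1 or 2 (adjusted p from 0.0509 to 0.244). Against SSY, TGG1 was lost without MG replicate 1 or 2 (adjusted p from 0.0761 to 0.142) and GC1 without ML1Y replicate 1 or 2, SSY replicate 3, or MG replicate 1 or 2 (adjusted p from 0.0603 to 0.132). TGG1 and GC1 missed the threshold with only the 2 groups in the fit (adjusted p from 0.0969 to 0.136). Calls were also lost with no filter for TGG1 and quantile normalization for TGG1 (adjusted p from 0.0523 to 0.178). Between FGF and MG further settings ended calls. MUTE, EPF1, CYP86A8 and GC1 missed the threshold with only the 2 groups in the fit (adjusted p from 0.2 to 0.223). Calls were also lost with no filter for EPF1, TGG1 and GC1, quantile normalization for MUTE, EPF1, CYP86A8, TGG1 and GC1 and no mean trend for EPF1 and TGG1 (adjusted p from 0.0513 to 0.303).

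Marker sums give what else the MG sort held, as the log2 of summed linear values. Genes that met the thresholds of the choice were left out of these sums, which takes out genes picked for being high in MG. With POLA3 kept, the 15 replication genes summed to 11.22 to 11.29 in MG and to at most 10.72 elsewhere. The 14 other replication genes summed to 11.15 and 10.32 in MG and to between 9.62 and 10.67 elsewhere, so MG replicate 2 lay within the range of the other libraries. The 13 other epidermis and cuticle genes summed to 14.32 and 12.96 in MG and to between 12.17 and 13.93 elsewhere, and MG replicate 2 again lay within that range. The 9 mature guard cell genes summed to 17.00 to 17.29 in MG, 16.73 to 17.00 in ML1Y, 18.65 to 20.71 in SSY, 19.99 to 20.73 in FGF and 20.44 to 20.85 in E1728G. These sums rest almost wholly on TGG1, which alone stood at 17.27 and 16.98 in MG. By their means, 2 of the 9 genes, KAT1 and SLAC1, were higher in MG than in SSY. The 8 photosynthesis genes summed to 13.20 to 13.67 in MG, below ML1Y. Vascular markers summed to 8.33 to 8.46 in MG and 8.91 to 9.05 in ML1Y, trichome markers to 7.23 to 8.05 and 7.88 to 7.92, and meristem markers to 7.01 to 7.07 and 7.39 to 7.42. The 11 genes for the handling of tissue summed to 18.78 to 19.74 in MG and 17.94 to 18.33 in ML1Y. They summed to 18.69 to 19.12 in SSY and 17.92 to 19.92 in E1728G, and both FGF libraries were at 19.30 or more. Both MG libraries thus lay within the range of the other libraries. HSP70, at 19.17 and 17.73 in MG, and HSP101, at 17.58 and 17.0, had the highest MG values of this list. By group means 5 of the 11 were higher in MG than in ML1Y, with a median difference of -0.32, and 10 were higher than in SSY. limma called 0 of the 11 between MG and ML1Y (1 higher and 3 lower unadjusted), SSY (3 higher) or FGF (1 higher and 1 lower). No marker of these lists was at 0 or had a missing value. The part of any of these in the members' excess in MG was not tested.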

How the data were processed

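The authors deposited a single table of normalized log2 expression values for 33602 genes and 11 libraries, and 0 columns were left without a sample. Bowtie2, DESeq2 (no version of either) and TAIR10 are named, per the submitters' processing notes. For the counter, the annotation, the transformation and the strand setting, nothing is given in the sources used here. It was inferred that the logarithm has base 2. A transformation that shrinks low values makes differences of low genes smaller. The labels' description field speaks of microarrays, but RNA sequencing is what the titles and library fields name, and it was taken as the assay. The values are logarithms already and were used as they are, where the design had allowed for linear values. Depth is unknown, and 2 genes had no value.

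The test was limma-trend (version 3.58.1 in R 4.3.3), two-sided, with Benjamini-Hochberg adjustment over all genes at 0.05. A gene entered it with a linear value of 10 or more (log2 of 3.32) in at least 2 libraries. Comparisons without MG used 9 libraries in 1 fit and those with MG used 11, and on simulated data with known changes the fit was tested and left many of them uncalled. The error of a difference is the fit's standard error. Names came from RefSeq TAIR10.1, matched on locus code for 32835 genes, 10654 of them with a symbol. Its promoter windows were read with Python 3.11.15.

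The members and the gene lists were chosen with earlier results of these data known, and the roles after the members were seen. Named are the 25 members with a symbol and the 5 without one that have the largest margins, members of a fixed list, members called outside MG (up to 8 in each direction), the 5 nearest the threshold on each side, neighbouring members, up to 4 called genes per list and comparison with MG, and the genes left out. Others were named after their values were seen. Alternatives were other filters, a pseudocount of 1, quantile normalization, a replicate block, other library sets and each library left out.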

Additional observations from a re-analysis of the deposited data

How the results depend on the processing

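The 89 members became 284 with a margin of 0.5 log2 units, 10 with a margin of 2 and 57 after quantile normalization, which kept 55 of the 89. They numbered 95 without a minimum MG mean, 60 with a minimum of 8 and 90 with a pseudocount of 1. Leaving out 1 library gave 98 to 903 members, the higher values (903 and 541) without MG replicate 1 or 2. The counts of all genes called were 1634 for SSY against ML1Y, 598 for FGF against ML1Y, 711 for E1728G against ML1Y, 521 for FGF against SSY, 3 for E1728G against FGF, 482 for MG against ML1Y, 634 for MG against SSY and 41 for FGF against MG. Leaving out 1 library gave 223 to 1918 for SSY against ML1Y, 25 to 735 for FGF against ML1Y, 35 to 837 for E1728G against ML1Y, 2 to 845 for FGF against SSY, 0 to 58 for E1728G against FGF, 36 to 630 for MG against ML1Y, 68 to 837 for MG against SSY and 0 to 257 for FGF against MG. A group left with 1 library was then assumed to vary like the others. Fitting the compared groups alone gave 932 for SSY against ML1Y, 1468 for FGF against ML1Y, 1193 for E1728G against ML1Y, 0 for FGF against SSY, 0 for E1728G against FGF, 2 for MG against SSY and 1 for FGF against MG. Quantile normalization gave 285 for FGF against SSY, 0 for E1728G against FGF, 292 for MG against SSY and 1 for FGF against MG. The higher filter (linear value of 50) gave 818 for FGF against SSY, 1 for E1728G against FGF and 62 for FGF against MG. No filter gave 0 for E1728G against FGF and 20 for FGF against MG. Dropping the mean trend gave 884 for FGF against SSY and 0 for E1728G against FGF. With the replicate number as a block the counts were 1129 for SSY against ML1Y, 516 for FGF against ML1Y, 669 for E1728G against ML1Y, 4 for FGF against SSY, 0 for E1728G against FGF, 452 for MG against ML1Y, 177 for MG against SSY and 2 for FGF against MG. The block ended the calls of DI21 and AT3G15750 (SSY against ML1Y), DI21 (FGF against SSY), XCP2 (MG against ML1Y), EPF2, MCM2, PCNA1, TGG1 and GC1 (MG against SSY) and MUTE, EPF1, CYP86A8, TGG1 and GC1 (FGF against MG), at adjusted p from 0.051 to 0.102, and of no other gene among the named calls. Correlations of same-numbered libraries' deviations ran from -0.08 to 0.03, so no pairing by number was seen across genes. In groups of 2 libraries the deviations mirror each other, so these values cannot exclude that libraries were prepared in matched sets. The cause of these changes was not tested. No named call changed sign under any alternative run. Groups of 2 or 3 libraries and an unknown read depth limit the precision.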

Other observations

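Apart from EPF2, 6 genes cleared the margin of 1 log2 unit with an MG mean under 6. They were AT1G24062 (margin 1.009, MG mean 4.912), AT1G48170 (1.284 and 5.944), AT2G31590 (1.027 and 5.485), AT2G42940 (1.087 and 5.991), AT4G29270 (1.361 and 5.794) and AT5G40960 (1.056 and 4.437).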
